A study of Homo sapiens with 6 samples.

Results

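The genes described here are 10 markers of megakaryocytes and platelets: ITGA2B, ITGB3, GP1BA, GP1BB, GP9, PF4, PPBP, TUBB1, VWF and SELP. They were taken by name from the deposited gene tables, where all 10 are found among 62754 gene rows. The RNA came from HUDEP-2, a human line of immortalised red cell precursors, so these markers belong to the sister lineage of the cells studied. Of the 6 libraries, 3 came from cells carrying a lentiviral shRNA against MEN1 (the hairpin named MEN1sh2) and 3 from cells carrying a non-targeting control shRNA, each labelled as a biological replicate; the former are called knockdown libraries here and the latter controls. Both groups otherwise shared one treatment: a serum-free expansion medium with erythropoietin (3 units per ml), stem cell factor (50 ng per ml), dexamethasone (1e-06 M) and doxycycline (1 µg per ml), puromycin at 2 µg per ml for 48 h from 24 h after infection, and harvest at 72 h. The genotype is labelled as MEN1 knockdown in one group and WT in the other. A single hairpin was used in a single cell line, so effects of menin loss and off-target effects of that hairpin cannot be told apart.

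Megakaryocytes and erythroid cells arise from a common progenitor and share the factors GATA1, TAL1, GFI1B and NFE2, while RUNX1 and FLI1 favour the megakaryocyte fate. The integrin chains ITGA2B (CD41) and ITGB3 (CD61) pair to form the platelet fibrinogen receptor, and GP1BA, GP1BB and GP9 together form the receptor for von Willebrand factor. PF4 and PPBP are chemokines stored in alpha granules, VWF and SELP (P-selectin) are an adhesive protein and an adhesion receptor of the same granules that endothelial cells also make, and TUBB1 is the beta-tubulin of the platelet marginal band. ITGA2B is also transcribed in early multipotent and erythroid progenitors, so it does not by itself mark a megakaryocyte.

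The expression unit is TPM, a transcript abundance corrected for gene length that sums to 1000000 in every library. Depth inferred from the deposited coverage was 18400000 to 26400000 read pairs per knockdown library and 23200000 to 35800000 per control. MEN1, which encodes menin, a scaffold subunit of the MLL1 histone methyltransferase complex, was at 6.29, 6.44 and 6.88 TPM after knockdown and at 41.2, 39.6 and 37.1 TPM in the controls. The groups did not overlap, and 16.6% of the control level remained (log2 fold change -2.42, SE 0.0803, limma adjusted p 8.54e-06). A gene was compared between groups only where at least 3 of the 6 libraries had 1 TPM or more, which 14294 genes met.

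Only ITGA2B and TUBB1 met that filter. The other 8 genes stayed under 1 TPM in all 6 libraries and were too low to compare. ITGA2B fell to 55.1% of its control level and TUBB1 rose 9.82-fold, so that 1 of the 10 genes was called higher, 1 lower and 8 were not tested. Among all 14294 genes tested, 22.1% were called higher and 31.5% lower at a limma adjusted p under 0.05. In either direction 53.6% of them were called, so 2 calls are to be read against that background. The lean to lower calls depended on the scaling: 3158 genes were higher and 4499 lower on TPM as deposited, 3758 and 3838 under median-of-ratios scaling, and 3731 and 3863 under quantile normalization. TUBB1 was higher in every knockdown library than in every control, as were 25.8% of the genes tested, and ITGA2B was lower in every one, as were 35.9%. Of the 8 genes below the filter, 3 are listed at 0 in all libraries. Of those with signal, ITGB3 and VWF were higher in every knockdown library, VWF at no more than 0.0197 TPM. Among the 20947 genes with signal below the filter, 7.34% were higher in every knockdown library.

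Sequence upstream of the transcription start is shown for the 2 genes that changed, in opposite directions, and for PPBP, which is listed at 0 in all libraries. Each run is the 250 bases before the RefSeq start on GRCh38.p14, read 5′ to 3′ on the strand of the gene. Capitals mark matches on either strand to a GATA motif (AGATAA or its variant AGATAG, also TGATAA or its variant TGATAG), an ETS motif (CCGGAA or CAGGAA) or the NF-E2 core TGAGTCA. The motifs do not overlap one another.
ITGA2B, chr17:44389650-44389899, minus strand: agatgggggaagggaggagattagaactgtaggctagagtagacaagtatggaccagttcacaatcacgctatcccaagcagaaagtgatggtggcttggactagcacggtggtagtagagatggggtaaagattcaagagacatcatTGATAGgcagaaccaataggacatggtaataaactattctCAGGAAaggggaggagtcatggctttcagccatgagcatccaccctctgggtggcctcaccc
TUBB1, chr20:59019179-59019428, plus strand: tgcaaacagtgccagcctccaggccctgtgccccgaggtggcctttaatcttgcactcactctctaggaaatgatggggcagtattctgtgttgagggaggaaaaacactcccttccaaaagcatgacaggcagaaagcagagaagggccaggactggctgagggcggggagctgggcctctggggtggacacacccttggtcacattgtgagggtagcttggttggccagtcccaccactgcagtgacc
PPBP, chr4:73988191-73988440, minus strand: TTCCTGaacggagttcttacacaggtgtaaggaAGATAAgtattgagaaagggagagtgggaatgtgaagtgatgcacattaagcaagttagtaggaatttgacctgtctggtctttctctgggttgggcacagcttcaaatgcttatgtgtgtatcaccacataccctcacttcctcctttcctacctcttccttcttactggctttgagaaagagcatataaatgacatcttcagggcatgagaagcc

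In these windows the start site of each of the 3 genes is the start of its row in the deposited tables. SELP, counted below, has a RefSeq start that differs from the start of its deposited row. ITGA2B holds a GATA match beginning 102 bases and an ETS match beginning 62 bases before the start, and PPBP holds a GATA match at 217 bases and an ETS match at 250 bases. TUBB1 holds none of the motifs. Of the 6 genes with a sequence in the RefSeq table (ITGA2B, GP1BB, GP9, PPBP, TUBB1 and SELP), 4 hold a GATA match, 2 an ETS match and 0 the NF-E2 core. Over 35116 promoters of the same length the shares are 22.3%, 35.7% and 4.2%. A match describes the letters only and does not show that a factor binds there.

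**Figure D1:**
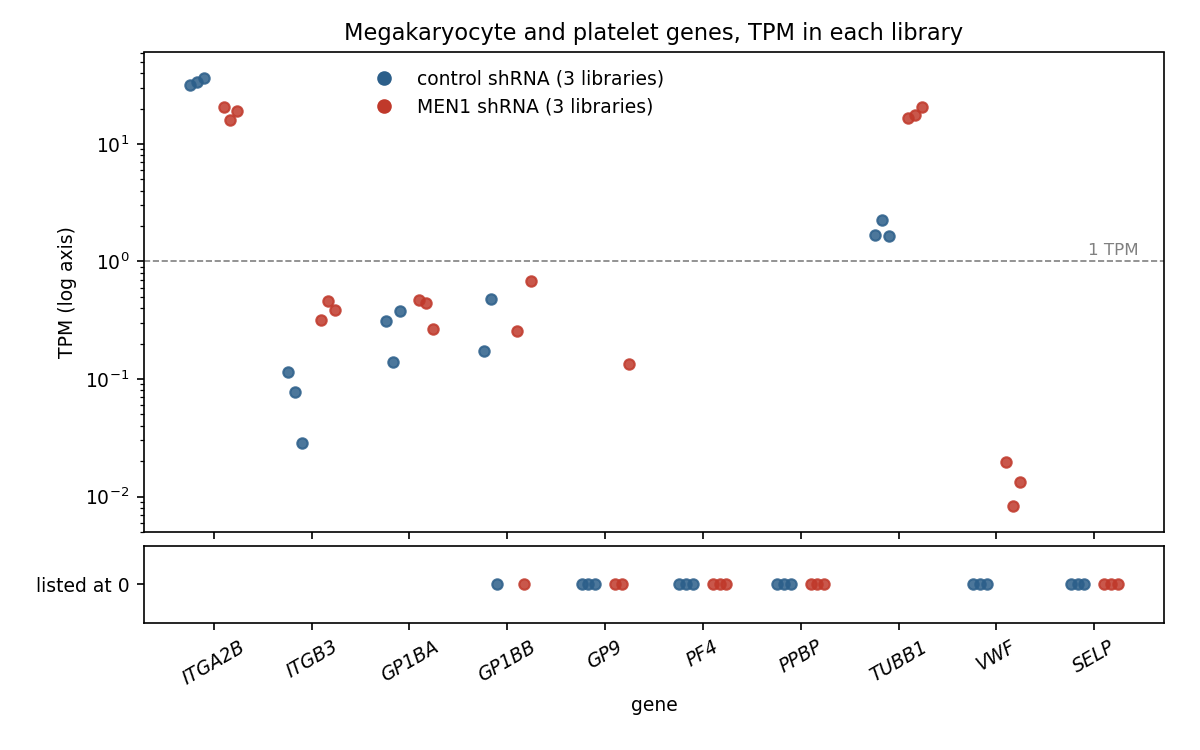
TPM of the 10 megakaryocyte and platelet genes (x axis) in each of the 6 libraries, on a log axis with values listed at 0 in the strip below; blue points are the 3 control shRNA libraries and red points the 3 MEN1 shRNA libraries. ITGA2B (higher in the controls) and TUBB1 (higher with the MEN1 shRNA) are the only genes above the dashed line at 1 TPM.

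Of the fibrinogen receptor genes, only the alpha chain could be compared. ITGA2B (ENSG00000005961, chromosome 17, 44372180 to 44389649, minus strand) encodes the alpha chain that gives the receptor its platelet specificity. In knockdown replicates 1 to 3 it stood at 20.8, 16.1 and 18.9 TPM, and in control replicates 1 to 3 at 31.5, 33.5 and 36.3 TPM. All 3 knockdown libraries lay below all 3 controls. The means were 18.6 ± 2.35 and 33.8 ± 2.44 TPM (SD, n = 3 each), a log2 fold change of -0.83 (SE 0.106, limma adjusted p 0.000456). The deposited coverage, which is not corrected for depth, was 25.3 to 37.3 in knockdown libraries against 63.9 to 89.0 in controls. ITGA2B has 10 transcripts in GENCODE v29, and its coverage did not follow FPKM as in single-transcript genes. It is therefore not read as reads per exonic base. In bulk RNA, fewer cells that make a transcript and less of it per cell cannot be told apart.

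ITGB3 (ENSG00000259207, chromosome 17, 47253827 to 47313743, plus strand) encodes the beta chain without which ITGA2B does not reach the cell surface. It was at 0.316, 0.463 and 0.388 TPM after knockdown and at 0.115, 0.0768 and 0.0286 TPM in the controls. The groups did not overlap, with the knockdown libraries higher, opposite to the order seen for ITGA2B. The deposited coverage was at most 1.51, and the gene did not meet the filter. Without any filter on low genes the ITGB3 difference passed in limma (log2 fold change 0.37 on the log2(TPM + 1) scale, SE 0.0652, adjusted p 0.0112), where 8.18% of 35241 genes were called higher and 11.3% lower. Added to the fit of the 14294 genes it did not pass (SE 0.175, adjusted p 0.111), so the call depends on which genes share the fit.

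The 2 chains were therefore far apart in level. In every library ITGA2B was above 16 TPM and ITGB3 below 0.5 TPM. The unnamed row ENSG00000259753, which overlaps ITGB3 on the same strand, is listed at 0 in all 6 libraries.

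The subunits of the von Willebrand factor receptor were all too low to compare. GP1BA (ENSG00000185245, chromosome 17, 4932277 to 4935023), the ligand-binding chain, was at 0.467, 0.447 and 0.267 TPM after knockdown and at 0.312, 0.139 and 0.376 TPM in the controls. The groups overlapped, and these values rest on about 5.6 to 13.8 read pairs per library. GP1BB (ENSG00000203618, chromosome 22, 19723539 to 19724771), the chain linked to GP1BA by disulfide bonds, was at 0.255 and 0.687 TPM (knockdown replicates 1 and 3) against 0.172 and 0.477 TPM (control replicates 1 and 2). The remaining library of each group has it at 0. The groups overlapped for GP1BB as well. GP9 (ENSG00000169704, chromosome 3, 129060779 to 129062406), the small chain that stabilises the complex, was at 0.133 TPM in knockdown replicate 3, which corresponds to about 1 read pair, and is listed at 0 in the other 5 libraries.

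GP1BB shares its position with 2 other rows on the same strand, SEPTIN5 and the unnamed ENSG00000284874, so how reads were split between these rows is not known. SEPTIN5, a septin of the cytoskeleton, was at 2.90, 3.06 and 5.18 TPM after knockdown and at 0.810, 1.70 and 3.63 TPM in the controls, with overlapping groups (log2 fold change 0.70, SE 0.346, limma adjusted p 0.126). The sum of the 3 rows did not pass either (log2 fold change 0.42, SE 0.259, limma adjusted p 0.207).

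The 4 granule genes were at or near 0. PF4 (ENSG00000163737) and PPBP (ENSG00000163736), neighbours on chromosome 4, are listed at 0 in all 6 libraries, as is SELP (ENSG00000174175, chromosome 1). The row ENSG00000288796, which spans PF4 and PPBP, and the near-identical paralog PF4V1 are listed at 0 too. VWF (ENSG00000110799, chromosome 12, 5948877 to 6124770) was at 0.0197, 0.00835 and 0.0132 TPM after knockdown and is listed at 0 in the 3 controls. Those values go with a deposited coverage of at most 0.0582, and no fold change is given. The housekeeping gene ACTB was at 3075 TPM or more in every library.

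TUBB1 (ENSG00000101162, chromosome 20, 59019429 to 59026654, plus strand) showed the larger of the 2 changes. In knockdown replicates 1 to 3 it stood at 16.5, 17.7 and 20.6 TPM, and in control replicates 1 to 3 at 1.67, 2.26 and 1.66 TPM. Every knockdown library was at least 16.5 TPM and every control at most 2.26 TPM. The means were 18.3 ± 2.08 and 1.86 ± 0.344 TPM (SD, n = 3 each), with a log2 fold change of 2.75 (SE 0.132, limma adjusted p 1.73e-05). In read pairs this is about 617 to 769 per knockdown library and 61.0 to 128 per control library. TUBB1 has 1 transcript in GENCODE v29.

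The 3′ end of TUBB1 overlaps ATP5F1E, a subunit of ATP synthase on the opposite strand. ATP5F1E was at 52.2, 61.5 and 53.9 TPM after knockdown and at 50.7, 48.2 and 46.1 TPM in the controls (log2 fold change 0.20, SE 0.0801, limma adjusted p 0.0664). It did not pass the threshold, and its ratio of means was 1.16 against 9.82 for TUBB1. Whether reads from ATP5F1E entered the TUBB1 values was not tested. Whether the quantification used strand is not given in the sources used here.

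**Figure D2:**
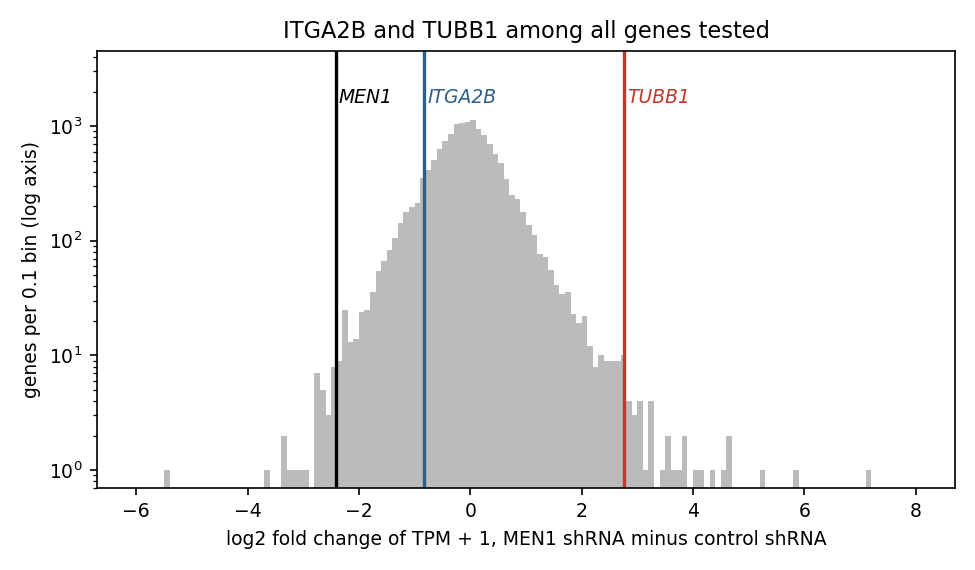
Number of genes (y axis, log scale) by log2 fold change of TPM + 1 (x axis, MEN1 shRNA minus control shRNA) for the 14294 genes tested, with vertical lines at MEN1 (-2.42), ITGA2B (-0.83) and TUBB1 (2.75). TUBB1 lies far in the upper tail and ITGA2B in the lower shoulder.

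Against all genes tested, TUBB1 had the 37th highest log2 fold change and ITGA2B the 1447th lowest of 14294. The median log2 fold change over all tested genes was -0.07, and the median size among called genes was 0.62. With only 2 genes tested, of opposite sign, the median over them (0.96) describes neither.

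Summed over the 10 genes, the TPM was 38.4, 34.8 and 41.0 in knockdown libraries and 33.8, 36.5 and 38.4 in the controls. The groups overlapped, with means of 38.1 ± 3.13 and 36.2 ± 2.34 TPM (SD, n = 3 each). The make-up of the sum differed much more than its size. ITGA2B took 46.2% to 54.2% of it after knockdown and 91.9% to 94.6% in the controls, while TUBB1 took 43.1% to 51.0% and 4.32% to 6.20%. The other 8 genes together contributed 0.918 to 1.49 TPM after knockdown and 0.404 to 0.693 TPM in the controls. The ratio of ITGA2B to TUBB1 was 0.908 to 1.26 in knockdown libraries and 14.8 to 21.9 in the controls.

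**Figure D3:**
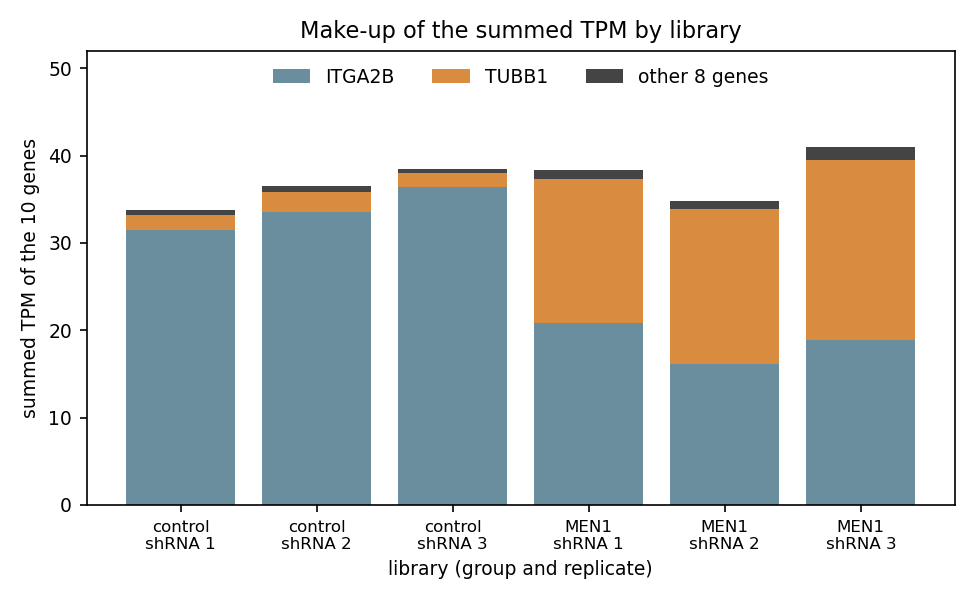
Summed TPM of the 10 genes (y axis) in each library (x axis), split into ITGA2B, TUBB1 and the other 8 genes. The bars are of like height, 33.8 to 41.0 TPM, but in MEN1 shRNA libraries TUBB1 takes 43.1% to 51.0% of the bar against 4.32% to 6.20% in the controls.

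In order of level, ITGA2B (33.8 TPM) stood above TUBB1 (1.86 TPM) in the controls without overlap, and all other members followed below 0.5 TPM. After knockdown, ITGA2B (18.6 ± 2.35 TPM) and TUBB1 (18.3 ± 2.08 TPM) did not differ beyond their spread. ITGB3 (0.389 ± 0.0735 TPM) and GP1BA (0.394 ± 0.110 TPM) were also alike in that group. GP1BB, GP9 and VWF followed at lower or uneven values. The 3 genes whose pattern over the 6 libraries lay nearest to that of ITGA2B, the most abundant of the 10, were the unnamed ENSG00000280206 (distance 0.0936), SNHG16 (0.0963), a host gene of small nucleolar RNAs, and MRE11 (0.103), a DNA repair nuclease. The distance is Euclidean, on log2(TPM + 1) centred for each gene, over 14293 other genes. The libraries fall into 2 groups, so genes with a like fold change are near by construction.

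Beyond the 10 markers, 5 wider lists of megakaryocyte and platelet genes held 98 genes in the tables, of which 63 were tested. Of these, 21 rose, 22 fell and 20 did not pass in limma, so 33.3% were called higher and 34.9% lower, against 22.1% and 31.5% of all genes tested. Their median log2 fold change was -0.0023, against -0.07 over all genes. Genes of each list moved both ways. The median was -0.0023 for transcription factors, 0.12 for surface receptors, 0.25 for granule genes, 0.017 for the cytoskeleton and -0.70 for signalling. Levels of these genes are given as mean ± SD over 3 libraries per group.

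Among the megakaryocyte transcription factors, 13 of 17 were tested, 4 rose, 5 fell and 4 did not pass. The shares of 30.8% higher and 38.5% lower stand against 22.1% and 31.5% of all genes tested. RUNX1, which is required for megakaryocyte maturation, fell from 34.8 ± 3.50 to 11.6 ± 1.42 TPM (log2 fold change -1.50, limma adjusted p 5.2e-05). GATA2, a progenitor GATA factor, fell from 157 ± 9.84 to 72.1 ± 17.8 TPM (log2 fold change -1.14, limma adjusted p 0.00101). TAL1 rose from 93.7 ± 1.38 to 158 ± 12.6 TPM, MAFG, a small MAF partner of NFE2, from 24.1 ± 0.565 to 48.2 ± 7.52 TPM, and ZFPM1 (FOG1), the cofactor of GATA1, from 16.8 ± 1.54 to 26.8 ± 1.56 TPM. Their limma adjusted p-values were 0.000115, 0.000336 and 0.000699.

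The shared erythroid and megakaryocyte factors GATA1, GFI1B and NFE2 did not pass. GATA1 was at 289 ± 2.26 TPM after knockdown and 277 ± 6.22 TPM in the controls (limma adjusted p 0.327). Every knockdown library was above every control for GATA1, as for 25.8% of the genes tested. GFI1B was at 389 TPM in both groups (SD 34.3 and 18.7, limma adjusted p 0.983). NFE2, the bZIP factor that drives TUBB1 transcription in megakaryocytes, was at 304, 167 and 312 TPM in knockdown replicates 1 to 3, and the controls were at 303, 283 and 300.2 TPM (log2 fold change -0.23, limma adjusted p 0.412). Knockdown replicate 2 was the low library for NFE2, and the groups overlapped. FLI1, the ETS factor of megakaryocytes, reached at most 0.0435 TPM and is listed at 0 in the 3 controls.

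Of 22 platelet surface receptor genes, 14 were under 1 TPM in all libraries, 4 of the 8 tested rose and 2 fell (50% and 25%, against 22.1% and 31.5% of all genes). CD9, a tetraspanin abundant on platelets, was at 8.85, 18.2 and 15.1 TPM after knockdown and is listed at 0 in all 3 controls (limma adjusted p 3.16e-05). CD9 met the filter through the knockdown libraries alone, so the filter and the call rest on the same values. No fold is given against a group listed at 0, and the fitted difference on the log2(TPM + 1) scale was 3.86. CD63, a tetraspanin of lysosomes and dense granules, rose from 325 ± 16.1 to 707 ± 47.6 TPM (limma adjusted p 2.97e-05). The 2 thrombin receptors went opposite ways. F2R (PAR1) rose from 2.95 ± 0.766 to 13.7 ± 2.64 TPM (log2 fold change 1.90, limma adjusted p 0.000168), and F2RL3 (PAR4) fell from 5.74 ± 0.315 to 2.62 ± 0.242 TPM (log2 fold change -0.90, limma adjusted p 0.000478). The collagen receptor GP6 and the glycoprotein GP5 reached at most 0.279 and 0.0330 TPM and were not tested.

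In the list of granule cargo and granule biogenesis, 13 of 21 genes were tested, 5 rose, 1 fell and 7 did not pass. That is 38.5% higher and 7.69% lower, against 22.1% and 31.5% of all genes. RAB27A, a small GTPase of granule docking, rose from 13.4 ± 0.709 to 40.6 ± 5.28 TPM (limma log2 fold change 1.52, adjusted p 4.27e-05). SRGN, the proteoglycan that packs granule contents, rose from 31.0 ± 0.644 to 82.9 ± 11.3 TPM, and the protease inhibitor TIMP1 from 539 ± 32.9 to 1223 ± 172 TPM, with limma adjusted p-values of 5.18e-05 and 0.00011. HPS1, needed for lysosome-related organelles, rose from 68.8 ± 3.82 to 90.5 ± 4.49 TPM (limma adjusted p 0.002). The 1 gene that fell was SLC35D3, a dense granule transporter named after its values were seen (at most 0.520 TPM after knockdown and at least 1.23 TPM in each control, log2 fold change -0.89, limma adjusted p 0.00407). SLC35D3 met the filter through the controls alone, so here too the filter and the call rest on the same values. NBEAL2, which is required for alpha granules, was at 31.0 ± 4.64 and 25.7 ± 2.01 TPM (limma adjusted p 0.114), and the granule protein THBS1 at 1.85 ± 0.936 and 0.629 ± 0.383 TPM (limma adjusted p 0.0626). THBS1 passed without knockdown replicate 1 (limma adjusted p 0.00873), as did NBEAL2 (0.0134).

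Of 18 cytoskeletal genes, 15 were tested, 6 rose, 5 fell and 4 did not pass (40% higher and 33.3% lower, against 22.1% and 31.5% of all genes). Among the 5 that fell is ACTN1, named after its values were seen (at most 0.172 TPM after knockdown, at least 1.41 TPM in each control). ACTN1 met the filter through the controls alone, so its filter and call rest on the same values. The integrin activators FERMT3 (kindlin-3) and TLN1 (talin) rose from 102 ± 7.22 to 179 ± 17.7 TPM and from 202 ± 8.82 to 308 ± 24.4 TPM, with limma adjusted p-values of 0.000225 and 0.000319. MYH9, the non-muscle myosin heavy chain of platelets, rose from 193 ± 3.56 to 281 ± 23.3 TPM, and TPM4, a tropomyosin, from 129 ± 7.57 to 228 ± 30.6 TPM (limma adjusted p 0.000503 and 0.000441). BIN2, a membrane-bending protein of blood cells, fell from 29.6 ± 0.510 to 5.77 ± 1.07 TPM (log2 fold change -2.19, limma adjusted p 2.43e-05).

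Platelet signalling genes were called lower more often than higher, with 9 lower, 2 higher and 3 not past the threshold among 14 tested (64.3% lower, against 31.5% of all genes). The adaptor LCP2 (SLP-76) fell from 18.2 ± 0.608 to 3.76 ± 0.575 TPM, the kinase PRKCQ from 21.2 ± 1.74 to 6.22 ± 0.856 TPM and the exchange factor VAV1 from 19.2 ± 0.113 to 7.70 ± 0.921 TPM. Their log2 fold changes were -2.02, -1.62 and -1.22, and their limma adjusted p-values 2.63e-05, 4.71e-05 and 7.65e-05. PTGS1, the cyclooxygenase of platelets, went the other way, from 4.20 ± 0.641 to 26.8 ± 2.86 TPM (log2 fold change 2.42, SE 0.127, limma adjusted p 2.34e-05). Next to TUBB1 and CD9 it had the third highest log2 fold change of the listed genes.

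**Figure D4:**
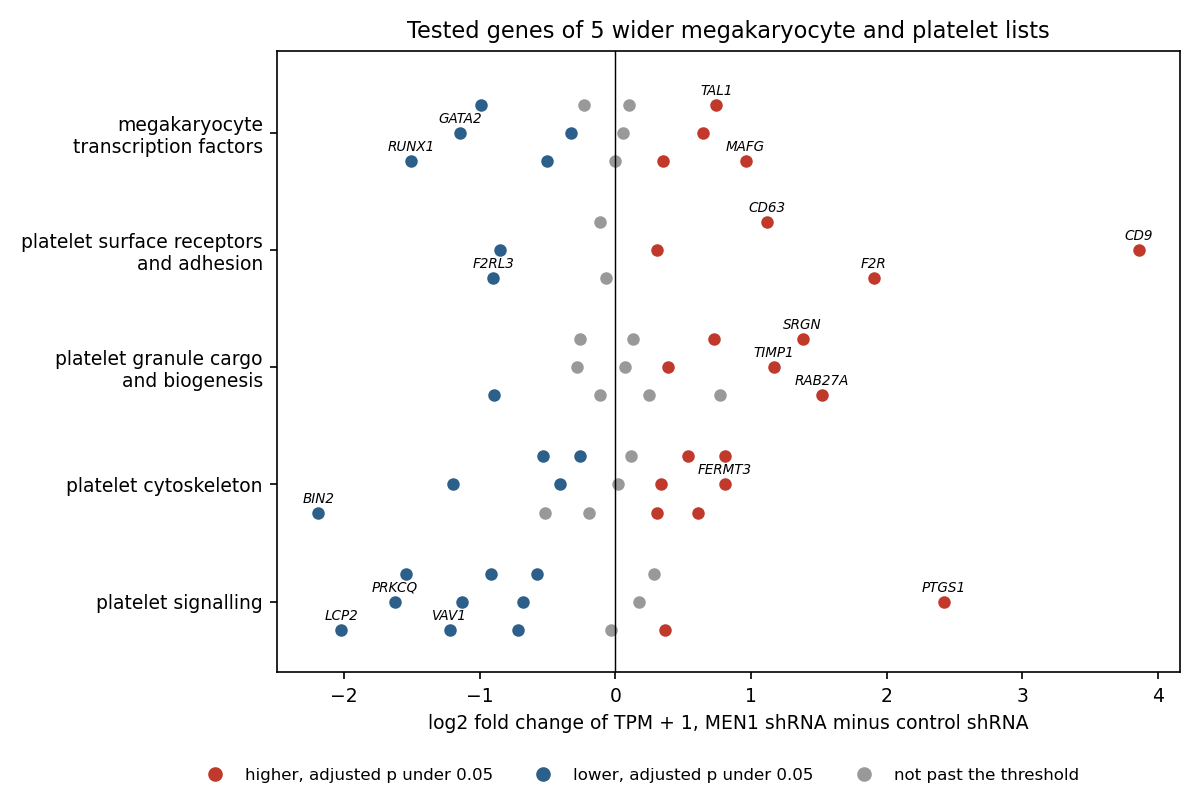
Log2 fold change of TPM + 1 (x axis, MEN1 shRNA minus control shRNA) for the 63 tested genes of the 5 wider lists (rows); red points rose and blue points fell at a limma adjusted p under 0.05, grey points did not pass, and vertical offsets only separate points. Each row holds both red and blue points, and blue points outnumber red ones by 9 to 2 among the signalling genes.

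Markers of other cell types were read beside these results, and their part in them was not tested. The counts stand beside 22.1% called higher and 31.5% called lower among all genes tested. Lists with few tested genes are too short to compare with those shares. All 12 erythroid markers were tested, 10 rose and 0 fell (KLF1 and EPOR did not pass), and their summed level was 92763 to 98662 TPM after knockdown and 52616 to 56705 TPM in the controls. Of 8 mast cell and basophil markers, 5 were tested and 3 fell, with a summed level of 948 to 1127 TPM against 1440 to 1740 TPM. Of 4 eosinophil markers, 1 was tested and fell (PRG2), with sums of 53.0 to 62.4 and 78.8 to 132 TPM. Of 8 myeloid markers, 3 were tested and fell, with sums of 1.29 to 2.89 and 6.12 to 8.48 TPM. Given these sums, the 3 did not all reach 1 TPM in any knockdown library. The filter and these calls thus rest partly on the same control values. None of the 6 stem and progenitor markers was tested, and their sums were 0.455 to 0.949 and 1.42 to 2.26 TPM. Among 8 endothelial markers, 7 were under 1 TPM in all libraries, and of these CDH5, KDR, EMCN and ROBO4 are listed at 0 in all 6. The exception, EGFL7, was tested and fell, and the sums over the 8 were 33.1 to 36.5 and 74.2 to 83.0 TPM. VWF and SELP, which endothelial cells also make, were at or near 0.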

How the data were processed

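Poly(A) RNA was sequenced from strand-marked libraries, per the labels' protocols. The submitters' processing notes name FastQC, Trimmomatic, STAR 2.7.1a, Picard 2.20.4 and StringTie 2.0.4 and the build hg38. The annotation release is not given in the sources used here. Each deposited table holds coverage, FPKM and TPM per gene, per the file headers, and no read counts. Coverage was read as mean reads per exonic base in single-transcript genes only. The TPM values deposited by the authors sum to 1000000 in each library. Negative residues within 1e-05 of 0 in control replicate 2 were set to 0. Since TPM sums to a constant, abundant transcripts that rise lower all others.

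The tested genes (14294) reached 1 TPM in 3 or more of the 6 libraries. Values were taken as log2(TPM + 1), which understates the change of low genes, and the model was limma's (version 3.58.1, R 4.3.3; lmFit, then eBayes with trend), 2-sided, as MEN1 shRNA minus control shRNA with no replicate block. P-values were Benjamini-Hochberg adjusted over all genes tested, with a threshold of 0.05. Exact permutation of 3 against 3 libraries cannot go below 0.1 and was not used. Depth is the ratio of deposited coverage to FPKM in single-transcript genes, divided by 302 bases per read pair, the most frequent value in low genes. Read pairs per gene use exonic lengths of GENCODE v29 and are approximate; 99.9% of the 58261 identifiers it shares with the tables overlap their deposited position. Tables and figures used Python 3.11.15, pandas 2.3.3, NumPy 2.4.6 and matplotlib 3.10.9. Promoters are from RefSeq.

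The 10 genes, the 5 wider lists and the cell type markers were chosen with earlier results of these data known. The text names the 10 genes, MEN1, up to 4 genes per wider list with the lowest adjusted p, RUNX1, FLI1, GATA1, GATA2, NFE2, GFI1B, GP5, GP6, PF4V1, THBS1, NBEAL2 and MYH9 whatever their values, the 3 genes nearest to the most abundant of the 10, and rows that overlap one of the 10 on the same strand. A further gene of the naming rule is not reported here. ATP5F1E, ACTB and genes listed as markers are named outside this rule. MKL1, an older name of MRTFA, was not found as a name of its own.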

Additional observations from a re-analysis of the deposited data

How the results depend on the processing

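ITGA2B stayed lower and TUBB1 higher, both past the threshold, under every alternative run: another filter, pseudocount, unit, scaling, array weights, an adjusted p of 0.01, the replicate block and each library left out. The log2 fold change ranged from -0.91 to -0.71 for ITGA2B and from 2.37 to 3.24 for TUBB1, and that of MEN1 from -2.57 to -2.22. Without a filter, and without a filter at a pseudocount of 0.1, 2 of the 10 genes were called higher in place of 1, the added gene being ITGB3 (adjusted p 0.0112 and 0.0419). Its SE was 0.0652 in the unfiltered fit and 0.175 when added to the filtered genes, where it did not pass (adjusted p 0.111). The median over those of the 10 genes that were tested (0.96) was then 0.097 and 0.41, because more genes entered it. It was 1.19 at a pseudocount of 0.1 and 0.80 with FPKM, and 0.91 to 1.02 with each library left out. The log2 ratio of summed TPM was 0.072 on TPM as deposited. It was 0.10 with FPKM, 0.14 without globin and mitochondrial genes, 0.16 under median-of-ratios scaling and 0.19 under quantile normalization (the cause was not tested). With each library left out the ratio was 0.015 to 0.13.

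Leaving out each library gave 6577 to 7542 genes past the threshold, 19 to 23 higher and 21 to 23 lower in the wider lists, 1 higher and 1 lower of the 10 genes, and -2.46 to -2.38 for MEN1. NFE2 and GFI1B, which never passed, changed sign. NFE2 ranged from -0.387 to 0.063 with each library left out, the latter without MEN1 shRNA replicate 2. GFI1B went to 0.030 with FPKM, 0.086 under median-of-ratios scaling and 0.065 once globin and mitochondrial genes were removed before scaling. With each library left out it ranged from -0.074 to 0.037, and was above 0 without MEN1 shRNA replicate 2 (0.036), MEN1 shRNA replicate 3 (0.031) or control replicate 1 (0.037). GATA1 passed only with median-of-ratios scaling (adjusted p 0.0428). THBS1 passed also with array weights (0.0217), and NBEAL2 also with median-of-ratios scaling (0.0362), quantile normalization (0.0283) and array weights (0.0424).

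Libraries of the same replicate number did not deviate together (correlations 0.0171, -0.0265 and -0.0124 over 14294 genes), so the number was not taken as a pairing. With it as a block, 7012 genes passed in place of 7657, and ITGA2B (adjusted p 0.00235) and TUBB1 (0.000377) kept their calls. Values under 1 TPM rest on few read pairs, which limits 8 of the 10 genes.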

Other observations

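The gene families of the 2 tested markers were read after their values were seen, taking every row by its name. Of 11 rows named as beta-tubulins, 7 were tested in limma, 2 rose, 2 fell and 3 did not pass. Among all genes tested 53.6% were called in either direction. Counts over so few family rows, here and for the integrins below, are to be read against that share. TUBB, the main beta-tubulin of dividing cells, was at 3547 ± 46.8 TPM with the MEN1 shRNA and 3050 ± 66.1 TPM in the controls (SD, n = 3 each; log2 fold change 0.22, limma adjusted p 0.0106). TUBB4B fell from 904 ± 27.1 to 753 ± 25.4 TPM (limma adjusted p 0.00434), and TUBB2A from 80.6 ± 4.86 to 32.1 ± 2.44 TPM (log2 fold change -1.30, limma adjusted p 2.94e-05). TUBB1 made up 0.358% to 0.459% of beta-tubulin TPM with the MEN1 shRNA and 0.0388% to 0.0537% in the controls, so it remained a minor isotype.

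Among 18 integrin alpha rows, 5 were tested. ITGA4, the alpha chain of VLA-4, was the most abundant and fell from 207 ± 11.9 to 148 ± 5.59 TPM (log2 fold change -0.48, limma adjusted p 0.000511). ITGA5 and ITGAV, alpha chains of fibronectin and vitronectin receptors, rose from 24.1 ± 1.99 to 32.2 ± 3.90 TPM and from 4.19 ± 0.328 to 7.22 ± 0.410 TPM (limma adjusted p 0.0132 and 0.0014), and ITGAE did not pass (limma adjusted p 0.0886). ITGA2B took 7.26% to 9.03% of integrin alpha TPM with the MEN1 shRNA and 11.1% to 11.9% in the controls. Of 8 integrin beta rows, 5 were tested. ITGB7, ITGB4 and ITGB5 rose (log2 fold changes 1.26, 0.80 and 1.55), ITGB2 fell (-0.91) and ITGB1 did not pass (-0.11, limma adjusted p 0.366). ITGB5 was low, at 2.05 to 2.40 TPM with the MEN1 shRNA and at most 0.151 TPM in the controls. It met the filter through the MEN1 shRNA libraries alone, so the filter and its call rest on the same values.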
